A study of Saccharomyces cerevisiae with 5 samples.

Results

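The genes described here encode the proteasome of budding yeast (Saccharomyces cerevisiae) and were chosen by symbol alone: every RPN gene, RPT1 to RPT6, PRE1 to PRE10, PUP1 to PUP3 and SCL1. This gave 34 genes of the 5449 measured, each with a single probe set. By role, 14 encode the core particle and 18 the regulatory particle. The other 2 carry an RPN name without being subunits: RPN4 encodes a transcription factor and RPN14 an assembly chaperone.

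Transcript levels were measured on 5 Affymetrix yeast arrays, of which 3 carried RNA of FY4, a wild-type strain, and 2 carried RNA of a PHO2 deletion mutant. PHO2 encodes a homeodomain transcription factor that acts with partner factors at genes of purine and histidine synthesis and of the phosphate response. Both groups grew exponentially in shaken batch culture, in minimal medium with glucose as the carbon source, and were harvested at one cell density, and the mutant is to be read against FY4. The strain background, markers and number of clones of the mutant are not stated in the labels. Whether replicates were separate cultures is not stated either, so the p-values measure the spread between these arrays, which may be technical.

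The proteasome is the protease that degrades ubiquitin-tagged proteins in the cytosol and nucleus. Its core particle is a barrel of stacked rings, in which alpha subunits form the gated entrance and beta subunits line the chamber that holds the proteolytic sites. The regulatory particle caps the barrel: its base holds a ring of ATPases that unfold substrates and pull them in, and its lid removes the ubiquitin. In yeast, Rpn4 activates the genes of both particles together, and it is itself a short-lived substrate of the proteasome.

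The arrays labelled PHO2 deletion were not separated from wild-type by the PHO2 (YDL106C) probe set, whose log2 signal was 10.72, 10.54 and 10.38 in wild-type and 10.07 and 10.84 in the labelled deletion. These overlap (difference -0.09, SE 0.24, adjusted p = 0.825). No source here places the probes relative to the deletion, so the group names are used as labels. Among purine synthesis genes, ADE1, ADE2, ADE4, ADE13 and ADE17 were lower on the labelled arrays, at -2.37 to -1.15 (limma, adjusted p up to 0.00198). ADE16 differed by -0.22 and did not pass (limma, adjusted p = 0.0797). The genotype itself was not tested. All values below are log2 of the deposited signal, or differences on that scale taken as arrays labelled PHO2 deletion minus wild-type. The median difference over all 5449 genes was 0.01, and arrays correlated across genes with r between 0.965 and 0.995.

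No proteasome gene differed between the groups past the threshold. Of the 34 genes, 0 rose and 0 fell (limma, adjusted p below 0.05), where 5.05% of all genes were called, 173 higher and 102 lower. With the arrays quantile normalized again that split over all genes turned, to 172 higher and 245 lower, and still 0 of the 34 were called. An unadjusted p below 0.05 was reached by 4 of the 34, all of them lower in the arrays labelled PHO2 deletion, against 29.4% of all genes in either direction and 13.3% in the lower direction. The differences ran from -0.23 for RPN10 to 0.19 for RPN13, or from 85.3% to 114% of the wild-type level. Their median size was 0.08, against 0.13 over all genes.

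Each interval given next is for a single gene and rests on the spread between these arrays, which may be technical. The length trend described below was left in. The 95% intervals of all 34 differences lay within a 1.5-fold change in either direction, as did those of 4354 of the 5449 genes. The lowest bound was -0.48, for RPN10, and the highest was 0.49, for RPN13. The median standard error was 0.07 for the proteasome genes and 0.08 for all genes, and the lowest value of any member on any array, 10.41 for RPN14, was well clear of a bound of 6.44 for background signal. The bound is the 95th percentile of the annotated probe sets that matched no S. cerevisiae gene.

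**Figure D1:**
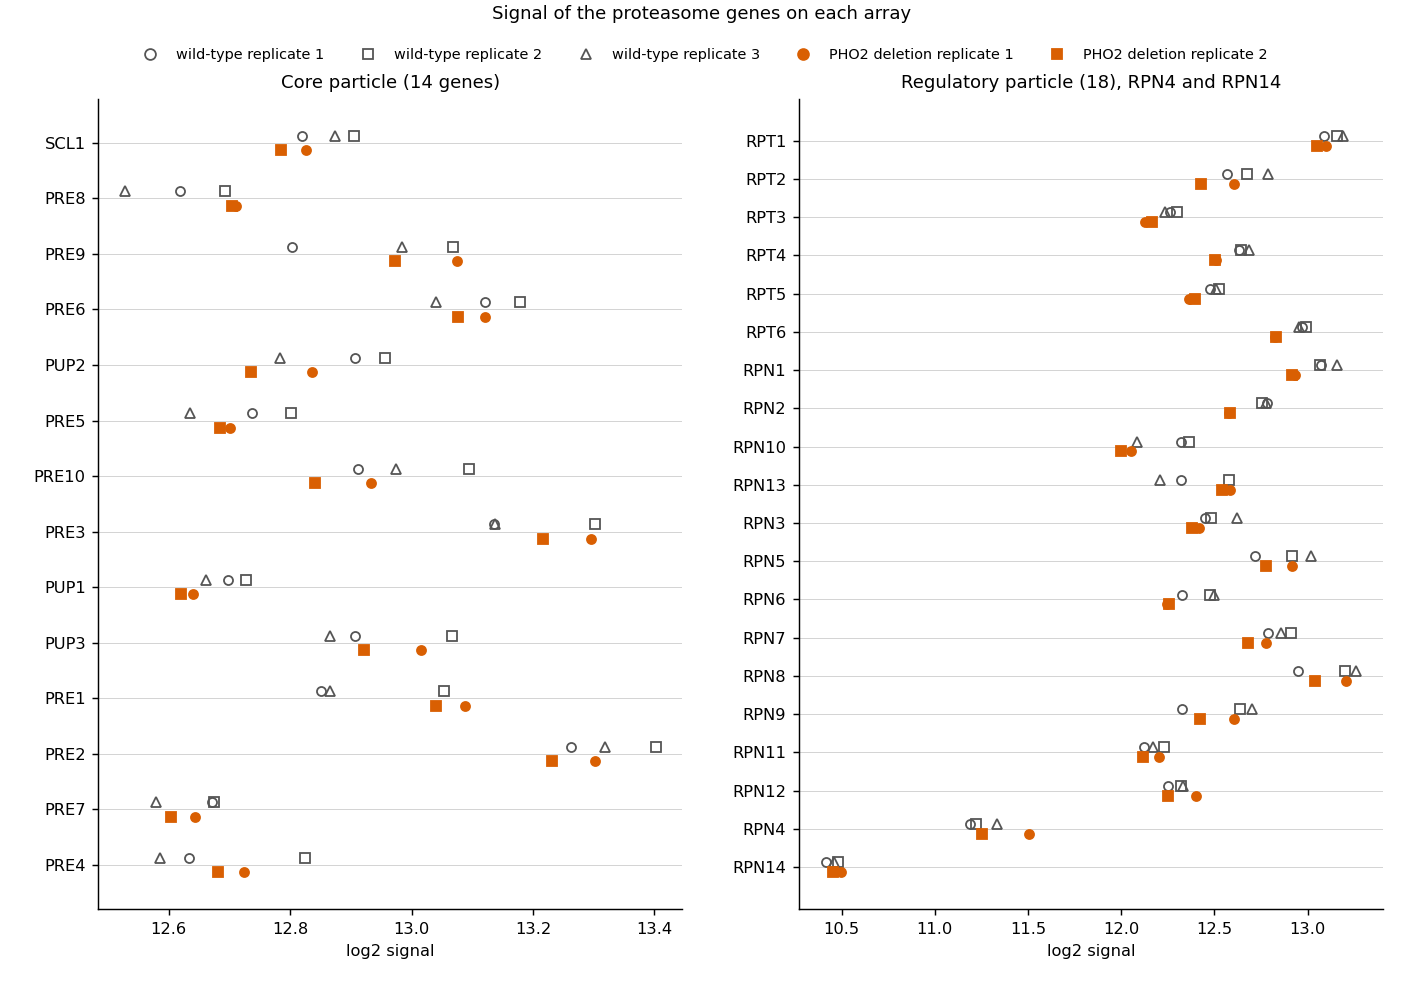
Log2 signal (horizontal axis, scaled separately in each panel) of the 14 core particle genes, and of the 18 regulatory particle genes with RPN4 and RPN14, on the 3 wild-type arrays (open symbols) and the 2 arrays labelled PHO2 deletion (filled symbols). In the core particle all 14 genes were highest among the wild-type arrays on replicate 2, and in the base of the regulatory particle RPN1, RPN2, RPT4 and RPT6 lay lower on both arrays labelled PHO2 deletion than on any wild-type array.

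The alpha ring genes lay close together in both groups. Their 7 differences ran from -0.11 to 0.09 with a median of -0.03, and 5 of 7 were below 0. PRE8, which encodes an alpha ring subunit, had log2 signals of 12.62, 12.69 and 12.53 on the wild-type arrays and 12.71 and 12.70 on the arrays labelled PHO2 deletion. It was the 1 core gene higher on both of these than on any wild-type array, yet its difference of 0.09 (SE 0.07, adjusted p = 0.385) did not pass the test. PRE10, the alpha ring gene with the lowest difference, gave 12.91, 13.09 and 12.97 in wild-type against 12.93 and 12.84 (difference -0.11, SE 0.08, adjusted p = 0.384). Its groups overlapped, since 1 labelled array lay above wild-type replicate 1. SCL1, PRE6, PUP2 and PRE5 differed by -0.10 to -0.02. PRE9, the one core subunit gene that yeast can live without, gave 12.80, 13.07 and 12.98 in wild-type and 13.07 and 12.97 in the labelled deletion, a spread of wild-type values wider than the group difference of 0.07.

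The beta ring holds the 3 proteolytic subunits, and none of their genes separated clearly between the groups. PRE2, whose product carries the chymotrypsin-like site, gave 13.26, 13.40 and 13.32 in wild-type and 13.30 and 13.23 in the labelled deletion (difference -0.06, SE 0.07, adjusted p = 0.558). PUP1, of the trypsin-like site, gave 12.70, 12.73 and 12.66 against 12.64 and 12.62, which is lower on both labelled arrays by a small margin (difference -0.07, SE 0.05, adjusted p = 0.435). PRE3, of the caspase-like site, gave 13.13, 13.30 and 13.14 against 13.30 and 13.22, and its groups overlapped (difference 0.06, SE 0.08, adjusted p = 0.6). The signs of the 3 differences were therefore mixed. PRE1, a beta subunit without a proteolytic site, had the highest difference of the core particle: 12.85, 13.05 and 12.87 in wild-type and 13.09 and 13.04 in the labelled deletion (difference 0.14, SE 0.08, adjusted p = 0.291). Wild-type replicate 2 of PRE1 lay between the labelled arrays. PUP3, PRE7 and PRE4, the other beta subunits without a proteolytic site, differed by -0.02 to 0.02.

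Among the wild-type arrays the core genes moved together. All 14 were highest on replicate 2, which was the highest wild-type array for 39.8% of all genes. The median deviation of the 14 genes from their own wild-type means was -0.04, 0.08 and -0.06 on the wild-type arrays and 0.00 and -0.04 on the arrays labelled PHO2 deletion. The labelled arrays thus fell within the range of the wild-type arrays. Without wild-type replicate 2 the core median difference was 0.01 in place of -0.02. All genes over 600 and up to 900 nt, the length of 13 of the 14, had median deviations of -0.01, 0.06 and -0.04 on the wild-type arrays. With the trend on coding length removed, as described below, the core deviations were -0.04, 0.02 and 0.00 in wild-type. On the labelled arrays they were then -0.11 and -0.10, below every wild-type array.

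With coding length not taken into account, the base of the regulatory particle had a lower median difference than the lid or either core ring. RPN13, the highest of the 34, also belongs to the base. Of the 10 base genes 9 had a difference below 0, and 7 were lower on both arrays labelled PHO2 deletion than on any wild-type array. Over all genes 25.9% were lower without overlap in this way and 27.1% higher. The lower share was 32.2% for genes over 900 and up to 1500 nt, the length of the 6 ATPase genes. For longer genes, such as RPN1 and RPN2, it was 35.9%, and for genes of 600 nt or less 4.0%. The median difference of the base was -0.14, which is 90.5% of wild-type. On each array the median deviation of the base genes was -0.02, 0.01 and 0.01 in wild-type and -0.14 and -0.15 in the labelled deletion, so the labelled arrays lay below every wild-type array. None of the 10 passed the test over all genes.

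RPN2 had the smallest p of the 34 genes. RPN2 and RPN1 encode the large scaffold proteins of the base, to which ubiquitin receptors and shuttle factors bind. RPN2 (YIL075C) gave log2 signals of 12.78, 12.76 and 12.78 on the wild-type arrays and 12.58 and 12.58 on the labelled arrays, with no overlap and little spread in either group. Its difference came to -0.19 (SE 0.05, 95% interval -0.31 to -0.06, unadjusted p = 0.0111, adjusted p = 0.0909), or 87.7% of the wild-type signal. RPN1 (YHR027C) gave 13.07, 13.07 and 13.16 against 12.93 and 12.92 (difference -0.17, SE 0.06, adjusted p = 0.128). Here too both labelled arrays lay below all wild-type arrays.

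The 6 ATPase genes all had differences below 0, from -0.16 to -0.07, with a median of -0.13. RPT4 (YOR259C) gave 12.63, 12.64 and 12.69 in wild-type and 12.51 and 12.51 in the labelled deletion (difference -0.15, SE 0.05, adjusted p = 0.142). RPT6 (YGL048C) gave 12.97, 12.99 and 12.96 against 12.83 and 12.83 (difference -0.14, SE 0.05, adjusted p = 0.141). These were the remaining genes with an unadjusted p below 0.05, at 0.034 and 0.033. RPT3 and RPT5 were also lower without overlap, by differences of -0.12 each. RPT2 had the ATPase difference farthest from 0, -0.16, but its wild-type values of 12.57, 12.67 and 12.79 overlapped the labelled values of 12.61 and 12.43. RPT1 overlapped as well (difference -0.07).

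RPN10 and RPN13, which encode ubiquitin receptors of the base, as Rpn1 also is, lay at opposite ends of the list. RPN10 (YHR200W), whose product binds ubiquitin chains, gave 12.32, 12.37 and 12.09 in wild-type and 12.05 and 12.00 in the labelled deletion. Both labelled arrays were below all wild-type arrays, but wild-type replicate 3 lay close to them, and the difference of -0.23 (SE 0.10, adjusted p = 0.195) did not pass. RPN13 (YLR421C) gave 12.32, 12.58 and 12.21 against 12.58 and 12.54 (difference 0.19, SE 0.12, adjusted p = 0.317). Its wild-type SD of 0.19 (n = 3) was as large as the difference, and wild-type replicate 2 lay at the level of the labelled arrays. RPN13 is the shortest gene of the 34, with a coding length of 471 nt.

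**Figure D2:**
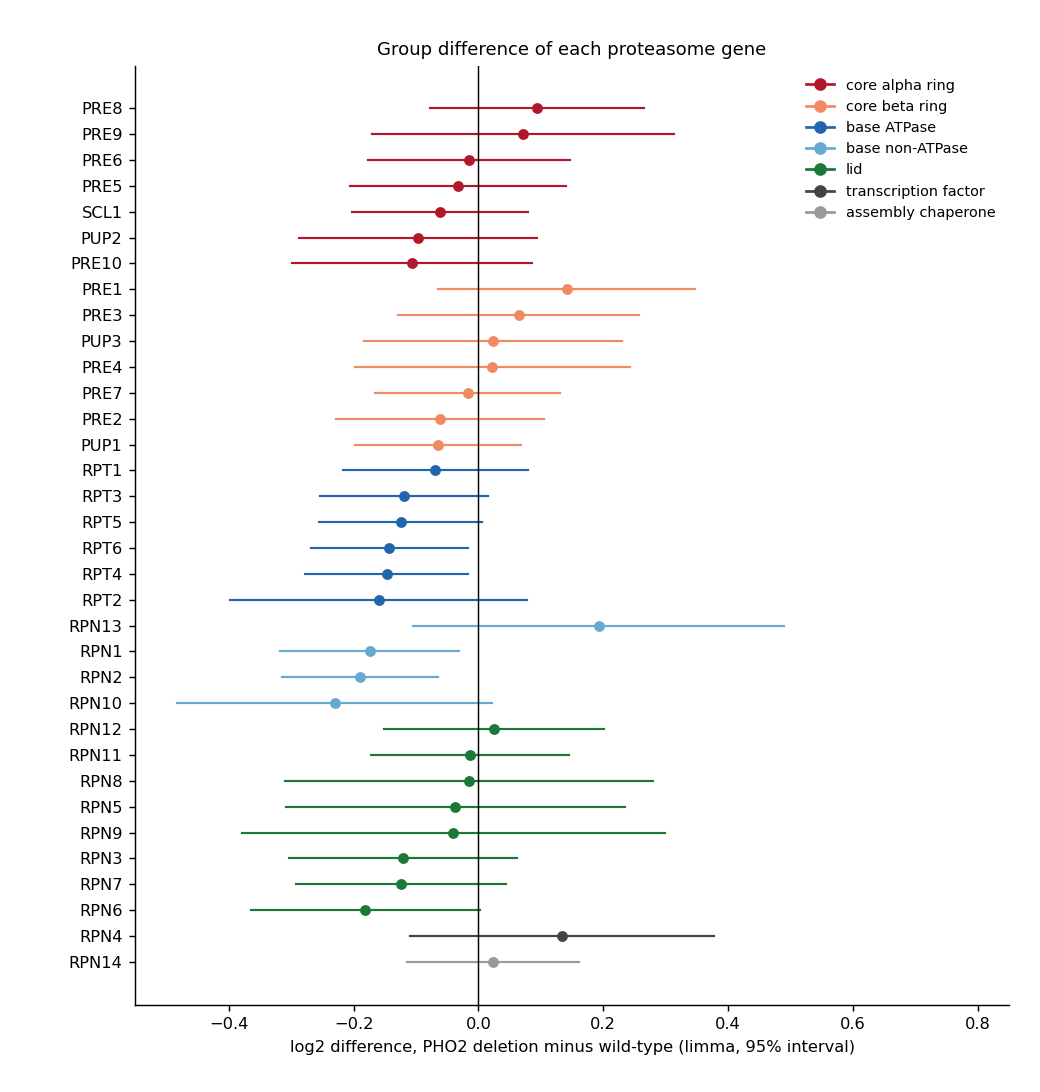
Difference in log2 signal between the arrays labelled PHO2 deletion and wild-type for each of the 34 genes (points, limma) with its 95% interval (lines), coloured by role and ordered by size within it. All 6 ATPase genes lay below 0, RPN10 was lowest at -0.23 and RPN13 highest at 0.19, and every interval lay within a 1.5-fold change.

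The lid genes were spread more widely within the groups than the ATPase genes. Their median within-group SD in wild-type was 0.09 against 0.03 for the ATPases, and their median difference was -0.04. RPN6 (YDL097C), a lid scaffold that contacts the core particle, gave 12.33, 12.48 and 12.50 in wild-type and 12.25 and 12.26 in the labelled deletion (difference -0.18, SE 0.07, adjusted p = 0.172). With RPN3 and RPN7, which each differed by -0.12, it made up the 3 lid genes that were lower without overlap. RPN11, the deubiquitinating subunit that cuts ubiquitin chains from the substrate, gave 12.12, 12.23 and 12.17 against 12.20 and 12.12 (difference -0.01, SE 0.06, 95% interval -0.17 to 0.15). Its groups overlapped over nearly their whole range. RPN12 differed by 0.02, the 1 gene above 0 among the 8 lid genes chosen by symbol. SEM1, a small lid subunit outside the name pattern and described below, is not counted here and differed by 0.88.

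RPN5, RPN8 and RPN9 carried most of the spread of the lid. RPN8, the partner of Rpn11 in the lid, gave 12.95, 13.20 and 13.26 in wild-type and 13.21 and 13.04 in the labelled deletion (difference -0.01, SE 0.12, adjusted p = 0.944). RPN9 gave 12.33, 12.64 and 12.70 against 12.61 and 12.42 (difference -0.04, SE 0.13, adjusted p = 0.866), and RPN5 gave 12.72, 12.91 and 13.02 against 12.92 and 12.78. In each of the 3 genes wild-type replicate 1 was the lowest of all 5 arrays and wild-type replicate 3 the highest. Among the wild-type arrays all 8 lid genes were lowest on replicate 1, which was the lowest wild-type array for 34.0% of all genes. The lid median deviation was -0.09 there, against 0.05 and 0.08 on the other wild-type arrays and 0.03 and -0.12 on the labelled arrays.

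RPN4, the activator of the proteasome genes, gave 11.19, 11.22 and 11.33 in wild-type and 11.51 and 11.26 in the labelled deletion. Only the first labelled array lay above the wild-type range, and the difference of 0.13 (SE 0.10, 95% interval -0.11 to 0.38, adjusted p = 0.385) was within the spread of the labelled arrays, whose SD was 0.18 (n = 2). RPN14, a chaperone during assembly of the base, gave 10.41, 10.48 and 10.46 against 10.50 and 10.45, with overlapping groups (difference 0.02, SE 0.05, adjusted p = 0.794). The known regulators of RPN4 transcription, HSF1, YAP1, PDR1 and PDR3, differed by -0.02 to 0.13. Of these 4, 0 were called by limma and 0 had an unadjusted p below 0.05, where 5.05% and 29.4% of all genes did.

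The core and the regulatory particle were then set against each other. The median difference was -0.02 for the 14 core genes, of which 8 were below 0, and -0.12 for the 18 regulatory genes, of which 16 were below 0. Over all genes 48.3% were below 0. Lower without overlap were 1 core gene and 10 regulatory genes, and higher without overlap 1 core gene and 0 regulatory genes. These are to be read against the shares of all genes, and of genes by length, given above for the base. For genes over 600 and up to 900 nt, the length of most core genes, the share lower without overlap was 13.4%. SEM1, a lid subunit outside the name pattern, is not counted here. The core median minus the regulatory median was 0.11. On each array the same contrast of median deviations was 0.01, 0.05 and -0.09 in wild-type and 0.09 and 0.10 in the labelled deletion. Both labelled arrays lay above all wild-type arrays, by less than the wild-type arrays differed among themselves. Taken instead as the median level of the core genes minus that of the regulatory genes, the contrast was 0.31, 0.36 and 0.17 in wild-type and 0.30 and 0.35 in the labelled deletion, and the groups overlapped.

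Coding length moved with this contrast. Core genes run from 597 to 867 nt with a median of 765 nt, and regulatory genes from 471 to 2982 nt with a median of 1298 nt. Over all 5449 genes the median difference was 0.32 for the 908 genes of 600 nt or less, 0.07 for the 865 genes over 600 and up to 900 nt, -0.03 for the 1571 genes over 900 and up to 1500 nt and -0.05 for the 2105 longer genes. The short genes also varied among the wild-type arrays, where their median deviation was 0.05, 0.17 and -0.18, against 0.33 and 0.31 on the labelled arrays. Within the proteasome, 13 core genes over 600 and up to 900 nt had a median difference of -0.02, and the 15 regulatory genes over 900 nt had one of -0.12. The 2 regulatory genes in the length range of the core genes, RPN10 and RPN12, differed by -0.23 and 0.02 (median -0.10). Among the genes chosen by symbol, the gene of 600 nt or less in each particle, PRE1 and RPN13, had the highest difference of its particle.

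**Figure D3:**
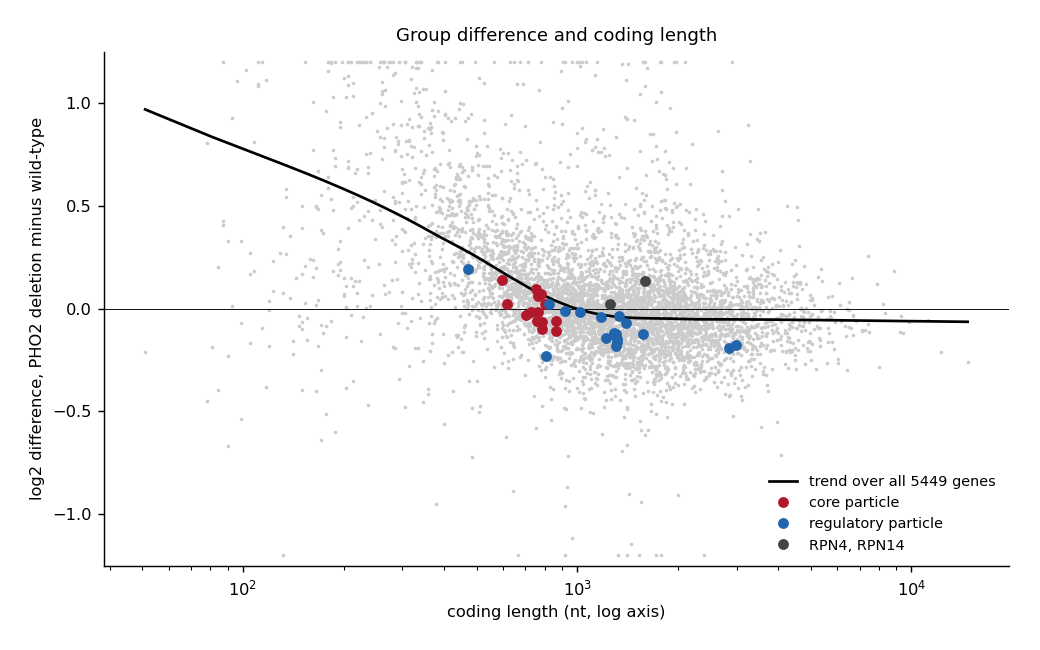
Difference in log2 signal (vertical axis; 75 genes beyond 1.2 in either direction are drawn at the edge) against coding length (log axis) for all 5449 genes (grey), with the trend over all genes (line) and the proteasome genes in colour. Most proteasome genes lay below the line, core genes at lengths where the line is above 0 and most regulatory genes where it is below 0.

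With the trend on coding length removed from every array, the contrast between the particles was close to 0. The core median became -0.11 and the regulatory median -0.08, and the core minus regulatory value changed sign to -0.02. On each array this contrast was then 0.01, -0.01 and -0.02 in wild-type and -0.03 and -0.02 in the labelled deletion. Of the 32 subunit genes 30 were then below 0, where 51.3% of all genes were, and 18 were lower without overlap, where 26.2% of all genes were. By class the medians were then -0.14 for the alpha ring, -0.10 for the beta ring, -0.11 for the base and -0.03 for the lid. The base was thus no longer the lowest class. Lower without overlap were 6 of the 10 base genes and 5 of the 7 alpha ring genes. Still 0 of the 34 genes passed the threshold (limma, 5.74% of all genes), and 7 had an unadjusted p below 0.05 in the lower direction, against 13.5% of all genes. RPN10 had the lowest value after this step (-0.29, adjusted p = 0.0957), while RPN4 had the highest (0.18, adjusted p = 0.213).

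**Figure D4:**
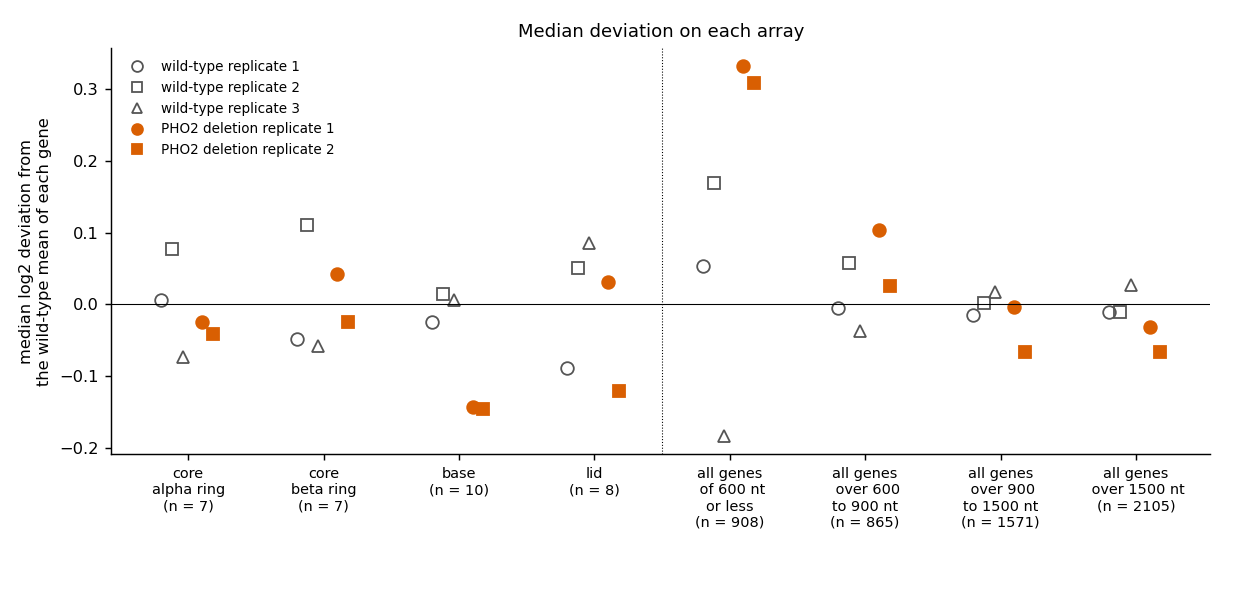
Median log2 deviation of each list from the wild-type mean of its genes on each array: the alpha ring, beta ring, base and lid at the left, and all genes in 4 classes of coding length at the right. The length trend was not removed from these values. The base lay near -0.14 on both arrays labelled PHO2 deletion and near 0 in wild-type, while the lid and the beta ring overlapped between the groups.

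Members that neighbour each other on a chromosome are few. PRE4 and RPN12 are separated by 1 gene and had differences of 0.02 and 0.02, and RPT4 and RPN8, also with 1 gene between them, had -0.15 and -0.01.

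The genes that assemble, adapt or feed the proteasome were looked at in 4 lists, with 51 genes measured of 52 listed names, 1 of which is another name of SHP1. In all, 0 rose and 1 fell, where 5.05% of all genes were called. BLM10, which encodes a large activator that binds the core particle in place of the regulatory particle, gave 11.58, 11.57 and 11.57 in wild-type and 11.27 and 11.28 in the labelled deletion. It fell to 81.4% of the wild-type level (log2 difference -0.30, SE 0.05, adjusted p = 0.0398 by limma). The call was lost with the length trend removed (difference -0.24, adjusted p = 0.0605), with the replicate number as a block (-0.30, adjusted p = 0.183) and without any 1 array (-0.30 to -0.29, adjusted p from 0.0591 to 0.241). ECM29, a proteasome-binding scaffold, differed by -0.26 (adjusted p = 0.143).

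Of the 17 assembly and accessory genes the 5 of 600 nt or less all had positive differences, as did 85.6% of the 908 genes of that length over the whole array. SEM1, a small lid subunit whose symbol lies outside the name pattern used here, gave 11.60, 11.98 and 10.99 in wild-type and 12.34 and 12.47 in the labelled deletion (difference 0.88, SE 0.29, adjusted p = 0.131). POC4, a chaperone of alpha ring assembly, gave 11.48, 11.67 and 11.00 against 12.01 and 12.03 (difference 0.63, SE 0.20, adjusted p = 0.125). Both were higher on each labelled array than in any wild-type array, and both were lowest by a wide margin on wild-type replicate 3, where short genes as a class were low. IRC25, the partner of POC4, differed by 0.51, UMP1, the chaperone of core maturation, by 0.28 and TMC1 by 0.26, and none of these passed. At their coding lengths the trend over all genes was 0.49 for SEM1 and 0.30 for POC4.

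In the ubiquitin system 0 of 22 genes were called by limma, and 5 had an unadjusted p below 0.05, where 5.05% and 29.4% of all genes did. UBC5, a ubiquitin-conjugating enzyme induced by stress, gave 11.24, 11.32 and 10.77 in wild-type and 11.91 and 11.90 in the labelled deletion (difference 0.79, SE 0.17, adjusted p = 0.0701). UBI4, the polyubiquitin gene, also a stress-induced source of ubiquitin, gave 12.42, 12.67 and 12.61 against 13.02 and 12.88 (difference 0.38, SE 0.10, adjusted p = 0.0884). Both were higher without overlap. UBC4, the close relative of UBC5, differed by 0.05, and RPL40A, RPL40B and RPS31, which encode ubiquitin fused to ribosomal proteins, by 0.14, 0.06 and 0.01. UBA1, the ubiquitin-activating enzyme, differed by -0.18 (adjusted p = 0.148) and UBR1, a ubiquitin ligase, by -0.19 (adjusted p = 0.134). UBC5 passed the threshold with the length trend removed (0.58, adjusted p = 0.0467), with array weights (0.71, adjusted p = 0.0306) and without wild-type replicate 3 (0.62, adjusted p = 0.029), and its adjusted p over all alternatives ran from 0.029 to 0.292. UBI4 passed with array weights (0.45, adjusted p = 0.0459) and without genes of 600 nt or less (0.38, adjusted p = 0.0496), and its adjusted p ran from 0.0459 to 0.348.

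Genes of shuttle factors and of the Cdc48 unfolding machine held 0 calls among 8 by limma, with 1 unadjusted p below 0.05, against the same shares of all genes. That was RAD23, a shuttle that carries ubiquitinated proteins to the proteasome, with 12.53, 12.44 and 12.46 in wild-type and 12.30 and 12.31 in the labelled deletion (difference -0.17, SE 0.06, adjusted p = 0.13). CDC48, the segregase ATPase, differed by -0.08, its cofactor UFD1 by 0.18 and SHP1 by -0.15. The list median was -0.10.

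**Figure D5:**
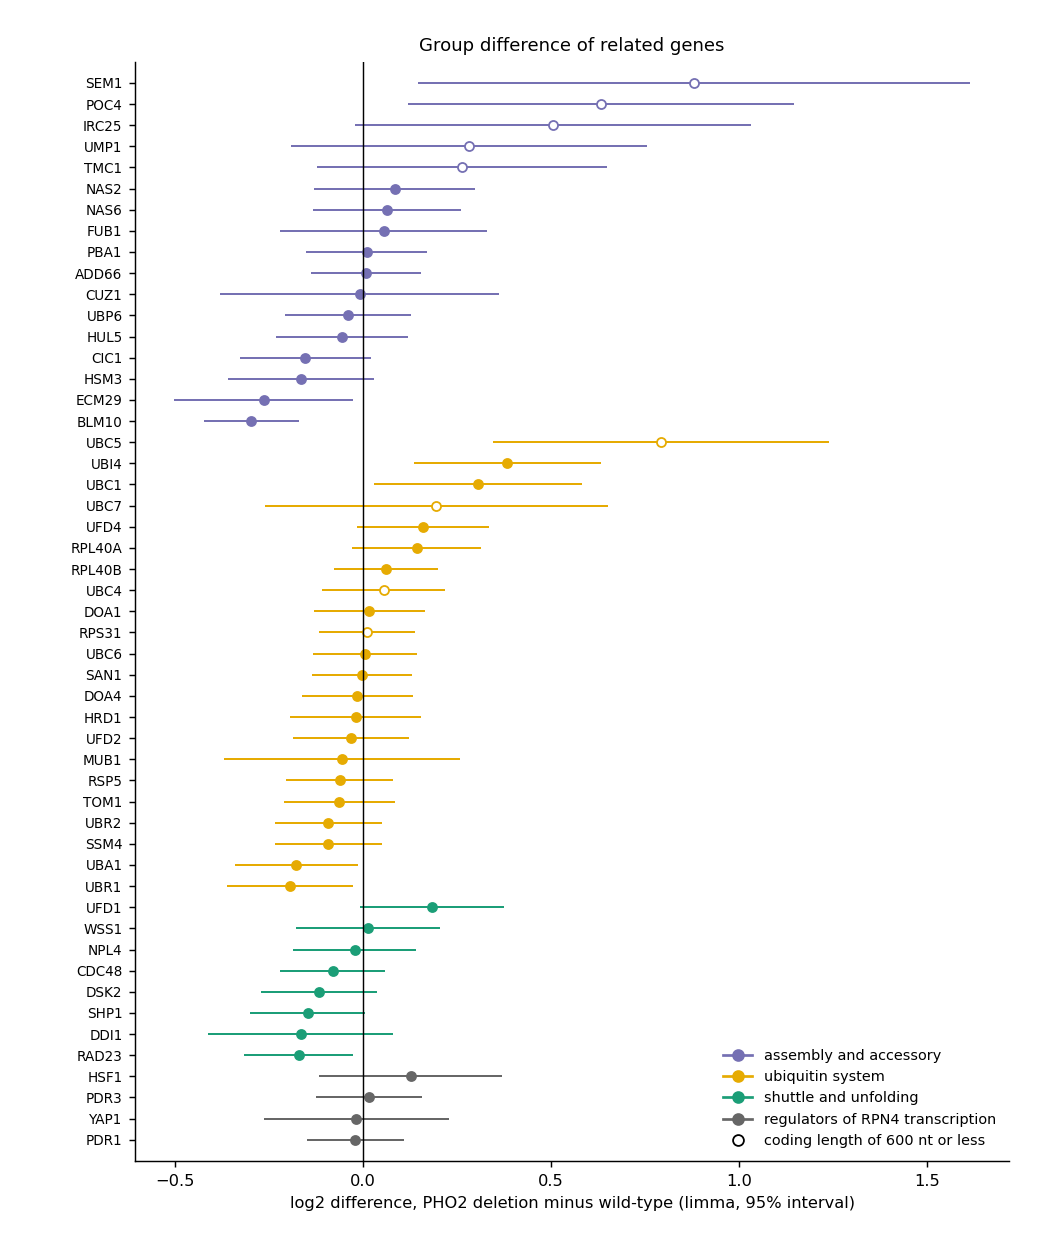
Difference in log2 signal between the arrays labelled PHO2 deletion and wild-type for 51 related genes (points, limma) with 95% intervals (lines), coloured by list; open points mark genes of 600 nt or less. All 9 open points lay above 0, as did 85.6% of all genes of that length, and BLM10 (-0.30) was the 1 gene past the threshold.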

How the data were processed

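The deposited values are a linear intensity per probe set and array, made with RMA in the affy package under R 2.8.0 per the submitters' processing notes. RMA gives log2 values, so a return to the linear scale is an inference, and which arrays were normalized together is not stated. Log2 of the deposited intensity was taken, where the design had written log2 values. Of 10928 probe sets 5498 matched 1 gene of assembly R64 by gene number or locus tag. The probe set with the highest mean was kept, leaving 5449 genes. No filter on low signal was applied, so all 34 members were tested. Coding length is that table's gene span, introns included. The groups were compared in R 4.3.3 with limma 3.58.1 (lmFit, eBayes, two-sided, Benjamini-Hochberg over all genes, threshold 0.05; 3 residual and 2.23 prior degrees of freedom), after a check on simulated data. That check added differences larger than any of the 34 to independent noise without a length trend, so it does not cover differences of their size. SDs are over 3 and 2 arrays, and this number limits the precision. Permuting arrays cannot give a p below 0.1, so no such test was run. The length trend is a loess curve (span 0.5). Median differences of lists are descriptions with no test.

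Genes named are the members with the 4 largest and 4 smallest differences, the 3 with the highest and lowest level and the largest wild-type SD, the proteolytic subunits, RPN4, RPN11 and RPN14, related genes past the threshold or among the 3 largest, and others named after their values were seen. Levels of different probe sets were not tested against each other. They served only to pick genes and, as medians, for the core minus regulatory level on each array. Members, lists and rules were chosen with earlier results of these data known. A planned search for promoter motifs was not run here.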

Additional observations from a re-analysis of the deposited data

How the results depend on the processing

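No proteasome gene passed the threshold under any of the 15 alternatives (0 of 34, or of 32 without the genes of 600 nt or less); the lowest adjusted p was 0.0522, for RPN2 with array weights. The count over all genes moved from 275 (173 higher, 102 lower) to 417 (172 higher, 245 lower) with arrays quantile normalized again, 638 with array weights, 489 without genes of 600 nt or less and 35 with the replicate block, and ran from 19 to 257 without any 1 array (23 without wild-type replicate 1, 19 and 26 without PHO2 deletion replicate 1 or 2). Related genes called went from 1 to 3 with array weights, 2 without genes of 600 nt or less and 0 with the replicate block, and from 0 to 1 without any 1 array. With the length trend removed the core median was -0.11 and the core minus regulatory median -0.021. Without any 1 array the core median ran from -0.05 to 0.01, the regulatory median from -0.15 to -0.09 and their contrast from 0.06 to 0.14. Why the counts moved was not tested.

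Of the members, 15 changed sign under at least 1 alternative, with no adjusted p there below 0.173. With the length trend removed the values were -5.8e-05 (PRE9), -0.013 (PRE3), -0.14 (PUP3), -0.031 (PRE1), -0.039 (PRE4), -0.078 (RPN13), 0.0026 (RPN5) and -0.027 (RPN12). With arrays quantile normalized again they were -0.0092 (PUP3), -0.015 (PRE4), -0.029 (RPN12) and -0.029 (RPN14). With array weights they were 0.041 (RPN5), 0.072 (RPN8), 0.064 (RPN9) and 0.0079 (RPN11). With the replicate block they were -0.017 (PUP3), -0.025 (PRE4), 0.031 (RPN5), 0.047 (RPN8) and 0.033 (RPN9). Without any 1 array the ranges that crossed 0 were -0.0028 to 0.13 (PRE9), -0.052 to 0.017 (PRE6), -0.077 to 0.0063 (PRE5), -0.025 to 0.083 (PUP3), -0.048 to 0.0026 (PRE7), -0.025 to 0.094 (PRE4), -0.12 to 0.033 (RPN5), -0.11 to 0.069 (RPN8), -0.15 to 0.052 (RPN9), -0.054 to 0.028 (RPN11) and -0.051 to 0.10 (RPN12). The replicate numbers are shared between the groups but nothing in the labels pairs them, so the replicate block is given only here. Deviations of same-numbered arrays correlated across genes with r of -0.38 and -0.0027. With 2 labelled arrays the deviations mirror each other, as in 0.38 for wild-type replicate 1 with labelled replicate 2. These values therefore cannot decide whether equal numbers are paired. Without 1 array labelled PHO2 deletion, the lone array left is assumed to vary like wild-type. All members lay above the background bound on every array.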
